A study of Equisetum hyemale and Pteris vittata and Marchantia polymorpha with 22 samples.

Results

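The ethylene perception pathway was followed through hypoxia in 5 land plants that are not seed plants: the liverwort *Marchantia polymorpha*, the moss *Physcomitrium patens*, the lycophyte *Selaginella moellendorffii*, the horsetail *Equisetum hyemale* and the fern *Pteris vittata*. Its members were all features (transcripts, loci or assembled genes) whose best hit in *Arabidopsis thaliana*, as listed by the authors, is a receptor (ETR1, AT1G66340; ERS1, AT2G40940; ETR2, AT3G23150; EIN4, AT3G04580), the kinase CTR1 (AT5G03730), the transducer EIN2 (AT5G03280), a transcription factor (EIN3, AT3G20770, or EIL1, AT2G27050) or an F-box protein (EBF1, AT2G25490, or EBF2, AT5G25350). This rule found 85 of 180885 features: 9 transcripts of 13572 in the liverwort, 13 loci of 21442 in the moss, 15 loci of 16892 in the lycophyte, 20 assembled genes of 55254 in the horsetail, and 28 assembled transcripts of 73725, from 12 Trinity genes, in the fern. A best hit names the most similar *A. thaliana* protein and does not establish orthology.

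In *A. thaliana*, ethylene receptors sit in the endoplasmic reticulum, bind the hormone with a copper ion delivered by the pump RAN1, and keep the pathway off while no ethylene is bound. They do so through CTR1, a Raf-like kinase that phosphorylates EIN2. When ethylene binds, CTR1 goes quiet, the tail of EIN2 is released and EIN3 and EIL1, which are otherwise marked for degradation by EBF1 and EBF2, accumulate and switch on ethylene-responsive genes. Ethylene builds up in submerged organs because gases diffuse slowly through water, and in flowering plants it primes cells for low oxygen. Its last synthetic enzyme, ACC oxidase, needs oxygen.

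Plants aged 13 days were kept in darkness for 8 h, either at 21% O2 (air) or at 1% O2 (hypoxia). There were 3 libraries per condition for the horsetail and 2 per condition for each other species, and a biological replicate comprised 3 thalli, plantlets or young shoots according to the methods of the study. The sample labels call all tissues shoot, although *M. polymorpha* and *P. patens* were sampled as haploid gametophytes. These are whole organs, so fewer cells of a type and less RNA per cell cannot be told apart. Gas composition was set around the plants, and no ethylene measurement was used here.

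Library depth, estimated from the smallest steps between low values, was 16.2 to 28.9 M reads, and all 85 members averaged at least 1 CPM (read counts per M reads). Best hits of photosynthesis genes (RBCS, PSBO, LHCB) summed to 2867 to 10181 CPM per library. Best hits of hypoxia marker genes (fermentation and sucrose synthase) were called higher for 1 of 2 features in the liverwort and 10 of 22 in the horsetail. Of all features there, 1.47% and 0.673% were. In the moss, lycophyte and fern 0 of 6, 0 of 6 and 0 of 21 were, against 0.07%, 0% and 0%. In these species the marker of largest log2 fold change was still higher in both hypoxia libraries than in both air libraries. The SUS3 hit Pp3c19_5850 of the moss measured 80.3 and 72.1 CPM in air and 175 and 145 CPM under hypoxia. The SUS3 hit TRINITY_DN36162_c0_g1_i18 of the fern measured 5 and 2.33 CPM against 27.8 and 11.7 CPM. In *S. moellendorffii* the 2 air libraries differed in these markers, and which of them is unusual cannot be told. The ADH1 hit, locus 145705, was at 712 CPM in air library 3, 111 CPM in the other and 2135 and 1762 CPM under hypoxia. Its pyruvate decarboxylase locus 157772 (best hit PDC2) was at 2996 and 2564 CPM under hypoxia. In air it was at 858 CPM in library 3 and 304 CPM in the other air library. That other air library carries a column number found on no air label and is called here the unnumbered one.

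Most of the pathway differed little between hypoxia and air. Across the species, 72 of the 85 members (84.7%) lay within 0.5 log2 unit of no difference, and for 72 of 85 the 95% interval of the log2 fold change lay wholly within 1 log2 unit of it. All 13 members of the moss and all 15 of the lycophyte were within 0.5 log2 unit, as were 19 of 20 in the horsetail, 6 of 9 in the liverwort and 19 of 28 in the fern. Among all features averaging at least 1 CPM, that share was 96.1%, 94.2%, 86.8%, 83.9% and 79.3%, respectively. The median absolute log2 fold change of the members was 0.19 in the liverwort, 0.08 in the moss, 0.13 in the lycophyte, 0.18 in the horsetail and 0.28 in the fern, beside 0.19, 0.11, 0.12, 0.19 and 0.23 for all such features. In size of difference the pathway was thus near the ordinary feature of each table.

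A feature was called when its false discovery rate (FDR) in limma was 0.01 or less and its log2 fold change, on log2(CPM + 1), was beyond 1. By this rule 1 member was called lower, an EIN4-like receptor of *M. polymorpha*, and 0 were called higher in any species. In *M. polymorpha* 1.47% of all transcripts were called higher and 1.35% lower. At an FDR under 0.05 with no minimum fold, 1 of its members had higher values (the EIN3 hit) and 2 lower (an EIN4 hit and the CTR1 hit). Of all its transcripts, 8.42% had higher and 8.34% lower values at that setting. In the other species 0 members passed this FDR. The share of all their features at this setting is not given here, so these 0 do not set the members apart. The share of all features called higher and lower was 0.07% and 0.014% in the moss, 0% and 0% in the lycophyte, 0.673% and 0.0452% in the horsetail, and 0% and 0% in the fern, so that 0 calls among 13, 15, 20 and 28 members do not set them apart. At an unadjusted p under 0.05, members with higher values numbered 1 in the liverwort (15.4% of all its transcripts), 0 in the moss (5.45%), 2 in the lycophyte (10.4%), 1 in the horsetail (6.71%) and 3 in the fern (6.03%). Members with lower values numbered 2 (15.8%), 0 (5.46%), 0 (5.42%), 2 (5.99%) and 0 (4.23%) in the same order.

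**Figure D1:**
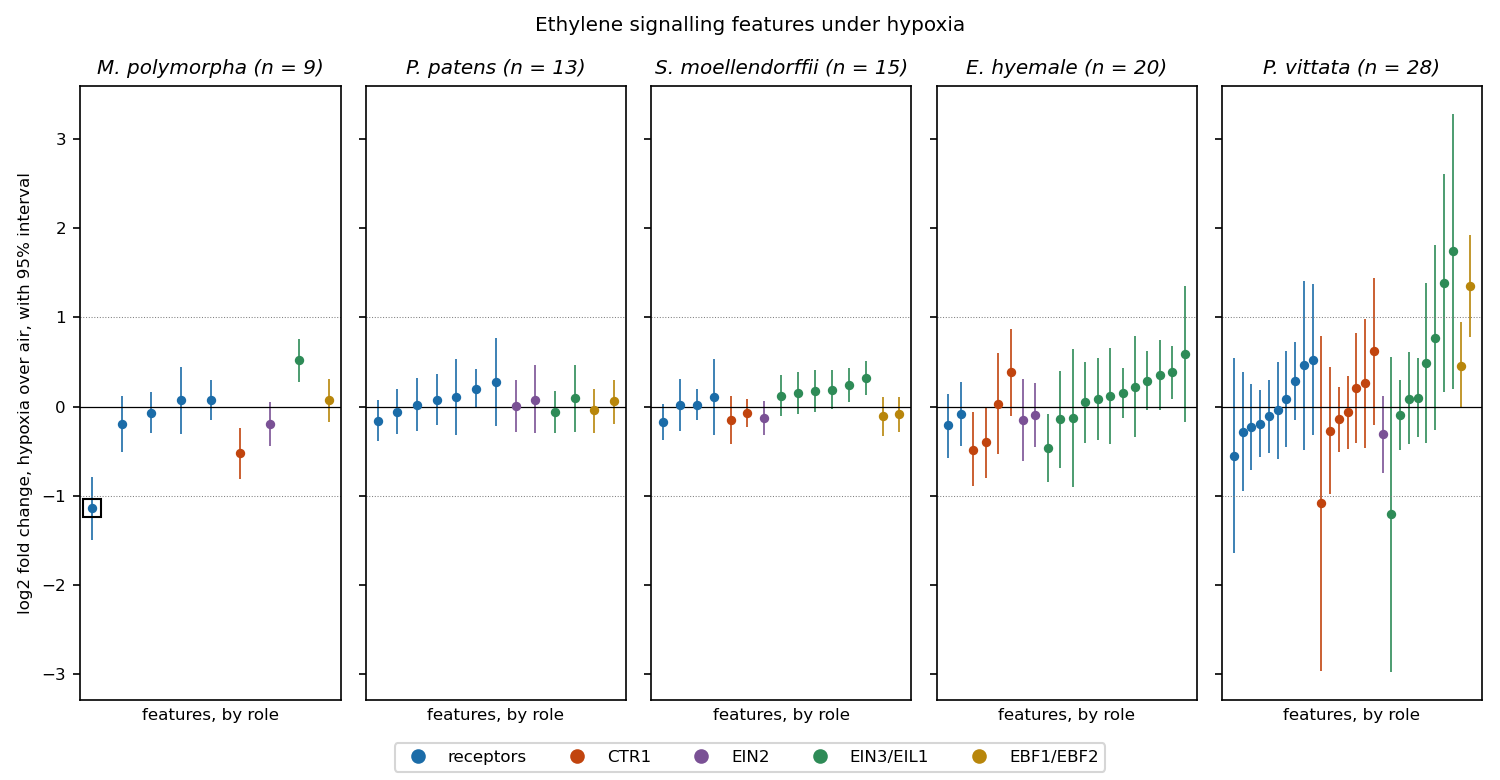
Log2 fold change of hypoxia over air (vertical axis, log2(CPM + 1) scale) with its 95% interval from limma for each of the 85 members, 1 panel per species, ordered along the horizontal axis by role and then by size. Dotted lines mark 1 log2 unit, the square marks the called receptor of *M. polymorpha* at -1.14, and the 8 EIN3/EIL1 transcripts of *P. vittata* spread from -1.20 to 1.74 with wide intervals.

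Receptors were found in all 5 species, with 28 features. ETR1 was the best hit of 24 features in all 5 species, EIN4 of 2 in *M. polymorpha* and ERS1 of 2 in *P. vittata*, while ETR2, which hypoxia induces in *A. thaliana*, was the best hit of 0 features in these tables. In the direction of the difference they were evenly divided, with 14 features above and 14 below 0.

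The called receptor was Mapoly0082s0007.1, whose best hit EIN4 belongs to the receptors that lack a complete set of histidine kinase motifs. It measured 36.5 and 31.9 CPM in the air libraries of *M. polymorpha* and 17.2 and 13 CPM under hypoxia. Both hypoxia libraries lay well below both air libraries, at 0.441 of the air mean (34.2 ± 3.25 CPM in air, 15.1 ± 3.03 CPM under hypoxia; SD, n = 2 each). The log2 fold change was -1.14 (SE 0.15, 95% interval -1.49 to -0.79, limma FDR = 0.0027). The call is near both thresholds: without air replicate 1 the log2 fold change was -1.05 at FDR 0.031, without air replicate 2 it was -1.23 at FDR 0.019, and without hypoxia replicate 2 it was -0.95 at FDR 0.0013, so that the call was lost in each case. The direction was the same in all of them.

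The other 4 receptor-like transcripts of *M. polymorpha* differed much less. The second EIN4 hit, Mapoly0178s0022.1, measured 9.08 and 8.27 CPM in air and 7.55 and 7.37 CPM under hypoxia, without overlap but with a log2 fold change of -0.19 (FDR 0.38). Mapoly0036s0126.1, an ETR1 hit, measured 125 and 134 CPM in air and 140 and 133 CPM under hypoxia, and these ranges overlapped. Mapoly0001s0284.1 and Mapoly0028s0036.1, also ETR1 hits, gave log2 fold changes of -0.07 and 0.07, so the lower level of Mapoly0082s0007.1 was not seen across the receptor family. The ETR1 hits summed to 204 and 220 CPM in air and 221 and 210 CPM under hypoxia, and the EIN4 hits to 45.6 and 40.2 CPM against 24.8 and 20.3 CPM.

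**Figure D2:**
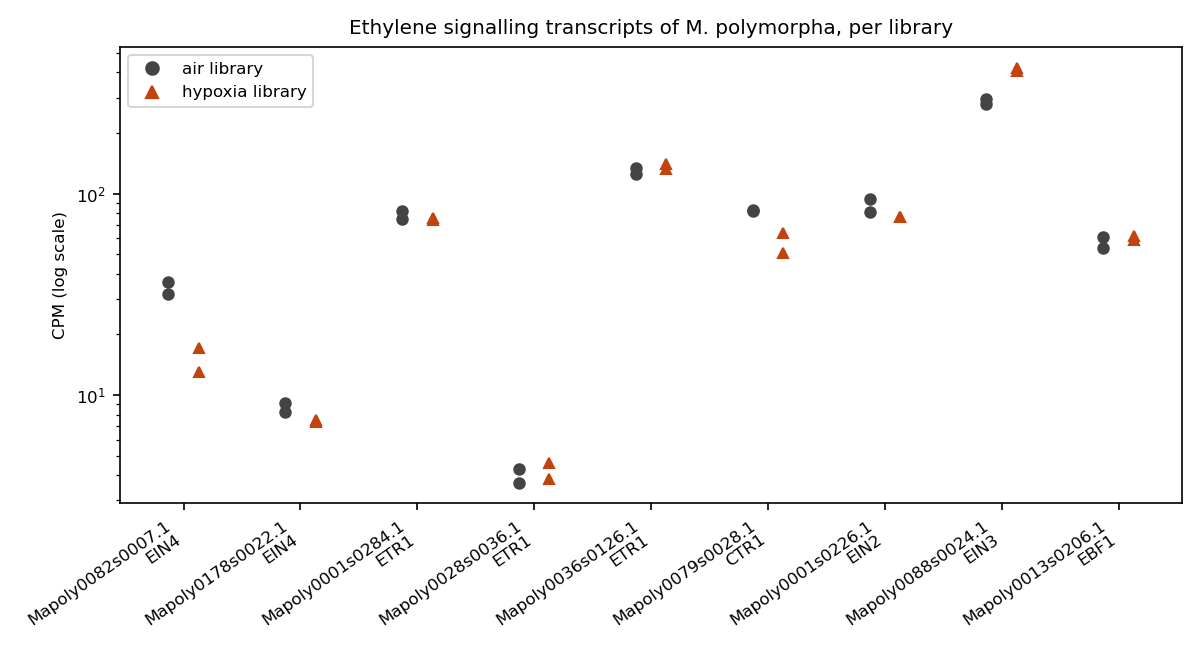
CPM (log scale) of the 9 ethylene signalling transcripts of *M. polymorpha* in each air library (circles) and hypoxia library (triangles), with the *A. thaliana* best hit under each identifier. The libraries separate widely for the EIN4 hit Mapoly0082s0007.1 (31.9 and 36.5 against 13 and 17.2) and the EIN3 hit Mapoly0088s0024.1 (280 and 296 against 407 and 422), while the 3 ETR1 hits overlap.

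The 7 ETR1-like loci of *P. patens* spanned log2 fold changes from -0.16 to 0.28. Pp3c3_1510 measured 113 and 97.3 CPM in air and 102 and 100 CPM under hypoxia. Pp3c4_27580 gave the largest value, 0.28, from 108 and 65.2 CPM in air and 105 and 99.1 CPM under hypoxia. The low value of air replicate 3 sets that difference, which was -0.08 without it. Libraries did not overlap for 1 receptor with higher values, Pp3c13_1440 (35.3 and 33.6 CPM against 39.6 and 39.6 CPM, FDR 0.52), and 1 with lower values, Pp3c27_3830 (99.3 and 91.9 CPM against 88.8 and 82.4 CPM, FDR 0.64). Of all *P. patens* loci, 20.5% had non-overlapping libraries with higher values and 20.9% with lower values.

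In *S. moellendorffii* the ETR1-like locus 110685 measured 223 CPM in the unnumbered air library, 202 CPM in air library 3, and 194 and 184 CPM under hypoxia. The libraries did not overlap, and the log2 fold change was -0.17 (95% interval -0.37 to 0.03, FDR 0.38). The ranges overlapped for the remaining 3 receptor loci, whose log2 fold changes were 0.02, 0.02 and 0.11. In *E. hyemale* the 2 ETR1-like genes belong to 1 Trinity cluster, and both overlapped between conditions. Ehym_DN111076_c3_g1 measured 88.5, 83.1 and 93.6 CPM in air and 97.7, 69.9 and 64.1 CPM under hypoxia (log2 fold change -0.21, FDR 0.66). Ehym_DN111076_c2_g1 measured 74.9, 67.9 and 85.9 CPM against 87.1, 73.2 and 57.9 CPM, so in both genes hypoxia replicate 1 was the highest of all 6 libraries and hypoxia replicate 4 the lowest.

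The 10 receptor transcripts of *P. vittata* came from 3 Trinity genes, and summing the transcripts of each gene narrowed the differences. TRINITY_DN34365_c0_g1 (ETR1) summed to 110 and 112 CPM in air and 101 and 106 CPM under hypoxia (log2 fold change -0.10, 95% interval -0.36 to 0.16). Its separate transcripts ranged more widely, from TRINITY_DN34365_c0_g1_i1 at -0.55 (10.5 and 4.91 CPM against 3.44 and 6.22 CPM) to TRINITY_DN34365_c0_g1_i4 at 0.09 (47.6 and 66.2 CPM against 65.3 and 54.8 CPM), each overlapping. TRINITY_DN35640_c0_g1, the second ETR1 gene, was level at 56.7 and 57.5 CPM against 54.1 and 56.8 CPM, summed over 6 transcripts of which 4 are members. TRINITY_DN34387_c0_g1, the ERS1 hit, summed to 36.9 and 36.4 CPM in air and 41.5 and 40 CPM under hypoxia, without overlap and with a log2 fold change of 0.15 (FDR 0.58). Its E-value of 1e-14 is weak beside the ETR1 hits, for which the table lists values down to 0. Of the 28 members, 8 had higher and 4 lower values without overlap, against 21.6% and 20.9% of all *P. vittata* transcripts.

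CTR1 was the best hit of 14 features in 4 species and of 0 loci in *P. patens*. Raf-like kinases are a large family in plants, so a best hit to CTR1 may include relatives with other tasks. Of the 14, 9 were below and 5 above 0, and 0 were called. Mapoly0079s0028.1 of *M. polymorpha* measured 82.9 and 82.4 CPM in air and 64.0 and 51 CPM under hypoxia. The hypoxia libraries were clearly lower, with a log2 fold change of -0.52 (SE 0.12, 95% interval -0.81 to -0.24, FDR 0.022), which misses both thresholds. Of all *M. polymorpha* transcripts, 30.4% had non-overlapping libraries with lower values, and 4 of the 9 members did.

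The CTR1-like loci of *S. moellendorffii* differed by less. Locus 10499 measured 86.2 CPM in each air library and 81.2 and 82.8 CPM under hypoxia, and locus 96997 measured 66.9 and 61.1 CPM against 63.1 and 52.6 CPM. The log2 fold changes were -0.07 (FDR 0.64) and -0.15 (FDR 0.56), the first without and the second with overlap. Across all loci, 26% had non-overlapping libraries with higher and 23.5% with lower values.

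In *E. hyemale* the CTR1-like genes Ehym_DN106365_c9_g3 and Ehym_DN106365_c9_g4 are from the same Trinity component, and their values were uneven between libraries. Ehym_DN106365_c9_g3 measured 44.4, 40.2 and 39.8 CPM in air and 28.9, 41.8 and 25.2 CPM under hypoxia (log2 fold change -0.40, FDR 0.40). Ehym_DN106365_c9_g4 measured 33.6, 36.1 and 37.0 CPM in air and 34.4, 20.3 and 22.9 CPM under hypoxia (log2 fold change -0.48, FDR 0.31). Hypoxia replicate 3 was high in the first and low in the second, and both overlapped with air. The component was also summed over its 5 genes, of which only 2 are CTR1 hits, a grouping chosen after the values were seen. The sums were 115, 118 and 123 CPM in air and 101, 103 and 81.0 CPM under hypoxia. These no longer overlapped, with a log2 fold change of -0.33 (95% interval -0.58 to -0.07, FDR 0.22). Among all components, 10.7% had non-overlapping libraries with higher and 10.1% with lower values, and 0.712% were called higher and 0.0378% lower. The remaining CTR1 hits, Ehym_DN94708_c0_g1 and Ehym_DN94708_c0_g2, had low levels of 1.80 to 5.16 CPM and log2 fold changes of 0.03 and 0.39.

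The 7 CTR1-like transcripts of *P. vittata* fell into 3 Trinity genes without a clear difference. TRINITY_DN34378_c0_g2_i1 measured 35.3 and 38.1 CPM in air and 31.7 and 34.5 CPM under hypoxia (log2 fold change -0.14, FDR 0.77). Its E-value of 1e-12 is weak beside those of the other CTR1 hits, from 3e-72 to 2e-108. TRINITY_DN35749_c0_g1_i1 was uneven, at 5.31 and 1.06 CPM in air and 1.89 and 0 CPM under hypoxia, where 0 allows up to 0.177 CPM (3 reads). Its log2 fold change of -1.08 had a 95% interval of -2.96 to 0.79, and the whole gene TRINITY_DN35749_c0_g1 was level at 24.7 and 31.5 CPM against 30.9 and 27.7 CPM. TRINITY_DN36029_c0_g2 summed to 39.9 and 33.0 CPM in air and 37.1 and 34.4 CPM under hypoxia.

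EIN2, the membrane protein that carries the signal from the receptors toward the nucleus, was the best hit of 7 features, of which 5 were below and 2 above 0, and 0 were called. Mapoly0001s0226.1 of *M. polymorpha* measured 81.3 and 94.4 CPM in air and 76.9 and 76.4 CPM under hypoxia (log2 fold change -0.19, 95% interval -0.44 to 0.05, FDR 0.27). Locus 447098 of *S. moellendorffii* measured 129 and 121 CPM in air and 110 and 118 CPM under hypoxia (log2 fold change -0.13, FDR 0.47). TRINITY_DN36156_c0_g1_i1 of *P. vittata* measured 101 and 121 CPM in air and 81.0 and 97.5 CPM under hypoxia (log2 fold change -0.31, 95% interval -0.74 to 0.12, FDR 0.60). In these 3 species both hypoxia libraries were below both air libraries by small steps, each within 0.5 log2 unit, as they were for 30.4%, 23.5% and 20.9% of all features in these tables.

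In the other species EIN2-like features overlapped between conditions. Pp3c27_2050 of *P. patens* measured 162 and 131 CPM in air and 150 and 144 CPM under hypoxia (log2 fold change 0.01), and Pp3c16_16830 measured 53.4 and 37.0 CPM against 46.5 and 48.0 CPM (0.08). Ehym_DN109505_c0_g2 of *E. hyemale* measured 23.0, 21.2 and 27.0 CPM in air and 29.2, 20.5 and 15.9 CPM under hypoxia (-0.15), and its neighbour in the assembly, Ehym_DN109505_c0_g7, gave -0.09. Their E-values of 2.03e-16 and 2.18e-16 are modest for a long protein.

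EIN3 and EIL1, the transcription factors at the end of the pathway, gave the largest group with 29 features, 10 with EIN3 and 19 with EIL1 as best hit. Of the 29, 23 were above and 6 below 0, beside 49.1% to 50.4% of features above 0 in the 5 tables. None was called, and features from 1 Trinity gene or of close sequence share reads, so these 29 are not independent.

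Mapoly0088s0024.1, the only EIN3-like transcript of *M. polymorpha*, measured 280 and 296 CPM in air and 422 and 407 CPM under hypoxia. Both hypoxia libraries lay far above both air libraries, at 1.44 of the air mean (288 ± 11.3 CPM in air, 414 ± 10.4 CPM under hypoxia; SD, n = 2 each). The log2 fold change was 0.52 (SE 0.10, 95% interval 0.28 to 0.76, limma FDR = 0.013), just outside the FDR threshold and within 1 log2 unit. Of all *M. polymorpha* transcripts, 30.1% had non-overlapping libraries with higher values. It was the only member to have higher values without overlap in this species.

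All 6 EIL1-like loci of *S. moellendorffii* had higher values in both hypoxia libraries than in both air libraries, against 26% of all its loci. The steps were small, with log2 fold changes from 0.12 to 0.32. When scaled by library totals without composition factors they ran from 0.07 to 0.26, and overlap was not checked at that scaling. Locus 112063 measured 120 and 110 CPM in air (the unnumbered library first) and 147 and 140 CPM under hypoxia, at 1.25 of the air mean. Its log2 fold change was 0.32 (SE 0.08, 95% interval 0.13 to 0.51), with an unadjusted p of 0.0064 and an FDR of 0.16 in limma. Locus 448939 measured 434 and 387 CPM in air and 478 and 447 CPM under hypoxia (log2 fold change 0.17, FDR 0.43).

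The remaining 4 loci were alike in direction. Locus 449238 measured 193 and 192 CPM in air and 238 and 217 CPM under hypoxia, the second most clearly separated (log2 fold change 0.24, FDR 0.24). Locus 419761 measured 158 and 150 CPM against 188 and 164 CPM, locus 16064 measured 21.0 and 23.8 CPM against 25.5 and 24.4 CPM, and locus 419770 measured 22.2 and 21.7 CPM against 25.4 and 22.6 CPM. The 6 loci summed to 947 and 886 CPM in air and 1103 and 1016 CPM under hypoxia. Because the air libraries differed in hypoxia markers, each was left out in turn. Without air library 3 the log2 fold change was 0.26 for locus 112063, 0.24 for 449238 and 0.09 for 448939. Without the unnumbered air library it was 0.38, 0.24 and 0.25. Each stayed above 0, and 0 passed an FDR of 0.05.

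**Figure D3:**
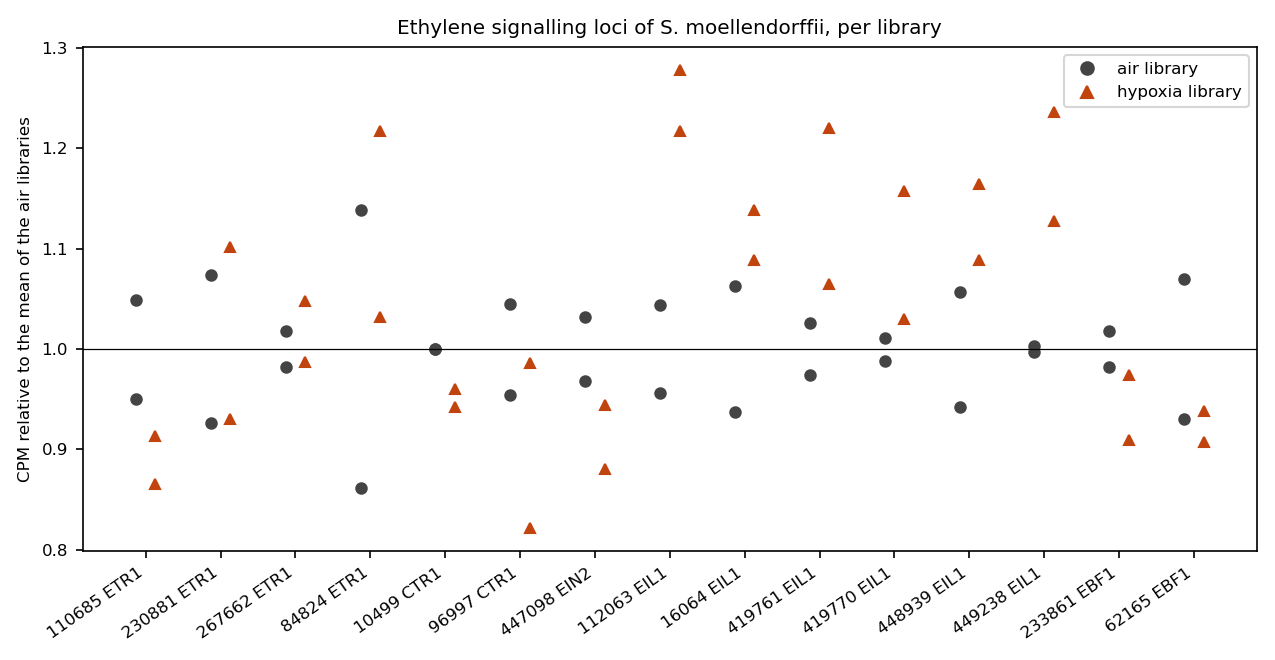
CPM of each of the 15 ethylene signalling loci of *S. moellendorffii* relative to the mean of its air libraries (vertical axis, ratio; axis starts at 0.8), per air library (circles) and hypoxia library (triangles). The 6 EIL1 loci have both triangles above both circles, while the CTR1, EIN2 and EBF1 loci and the ETR1 locus 110685 lie level or lower.

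The 2 EIN3-like loci of *P. patens* overlapped between conditions. Pp3c7_9970 measured 69.0 and 48.7 CPM in air and 64.6 and 59.8 CPM under hypoxia (log2 fold change 0.10, 95% interval -0.28 to 0.47). Pp3c11_15260 measured 43.4 and 39.5 CPM against 41.5 and 38.1 CPM (-0.06, 95% interval -0.30 to 0.18).

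*E. hyemale* had 12 EIN3/EIL1 genes, 9 above and 3 below 0. Libraries did not overlap for 2 with higher and 1 with lower values, against 9.66% and 9.38% of all its genes. Ehym_DN104805_c0_g3 measured 102, 83.4 and 115 CPM in air and 162, 125 and 102 CPM under hypoxia (log2 fold change 0.35, FDR 0.46), with hypoxia replicate 4 inside the air range. The neighbouring Ehym_DN104805_c0_g1 measured 52.5, 49.6 and 49.9 CPM against 72.0, 56.6 and 72.1 CPM (0.39, 95% interval 0.09 to 0.68, FDR 0.24). Summed over the 3 genes of their Trinity component, of which 2 are EIN3 hits, the levels were 159, 137 and 169 CPM in air and 242, 188 and 178 CPM under hypoxia, higher without overlap but not past the threshold (0.37, FDR 0.24).

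A second EIN3-like cluster of *E. hyemale* split in direction. Ehym_DN108283_c3_g1 measured 40.9, 34.4 and 34.3 CPM in air and 24.5, 33.4 and 21.8 CPM under hypoxia (log2 fold change -0.46, 95% interval -0.84 to -0.08, FDR 0.28), whereas Ehym_DN108283_c2_g1 measured 42.6, 39.6 and 46.4 CPM against 49.5, 43.5 and 50.2 CPM (0.15, FDR 0.71). Ehym_DN106392_c1_g1 gave the largest value, 0.59, from low levels of 1.26, 1.16 and 0.683 CPM in air and 2.60, 3.60 and 0.689 CPM under hypoxia, where replicate 4 lay with the air libraries. Ehym_DN104411_c3_g1 (EIL1) measured 16.2, 17.6 and 19.1 CPM against 23.7, 22.5 and 19.3 CPM and was higher without overlap (0.29, FDR 0.47). The other 6 genes overlapped, with log2 fold changes between -0.14 and 0.22.

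In *P. vittata* 8 EIN3/EIL1 transcripts came from 4 Trinity genes, and 1 gene had a larger log2 fold change than any other Trinity gene of the list. TRINITY_DN35207_c1_g1, an EIL1 hit (E-value of 4e-143 or 5e-143 for its transcripts), summed to 20.4 and 15.0 CPM in air and 46.1 and 36.0 CPM under hypoxia. Both hypoxia libraries lay well above both air libraries. In a fit across all 36196 Trinity genes its log2 fold change was 1.18 (SE 0.18, 95% interval 0.75 to 1.60, limma FDR = 0.056), beyond the fold threshold but not the FDR threshold. In that fit 0.0166% of genes were called higher and 0.00553% lower, and 22.5% had non-overlapping libraries with higher and 24.4% with lower values.

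Its transcripts showed the same direction with different precision. TRINITY_DN35207_c1_g1_i2 measured 0 and 2.40 CPM in air, where 0 allows up to 0.162 CPM (3 reads), and 5.41 and 4.92 CPM under hypoxia (log2 fold change 1.74, 95% interval 0.20 to 3.28, FDR 0.44). TRINITY_DN35207_c1_g1_i4 measured 17.4 and 6.10 CPM in air and 33.5 and 24.9 CPM under hypoxia (1.39, 95% interval 0.16 to 2.61, FDR 0.44). TRINITY_DN35207_c1_g1_i1 measured 3.03 and 6.47 CPM against 7.26 and 6.22 CPM (0.49), and only this transcript of the 3 overlapped. Over the *P. vittata* members, 3 transcripts were higher without overlap and beyond 1 log2 unit, against 2.83% of all transcripts, and 0 were lower in that way, against 1.54%. The 3 were i2 and i4 of this same gene, and an EBF1 hit described below, whose E-value of 1.1 is no meaningful similarity.

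The other EIN3/EIL1 genes of the fern were level. TRINITY_DN35207_c2_g1, from the same Trinity cluster, summed to 35.4 and 35.9 CPM in air and 37.9 and 38.3 CPM under hypoxia (log2 fold change 0.09, FDR 0.74), and TRINITY_DN33769_c0_g1_i1 (EIN3) measured 27.3 and 28.1 CPM against 27.7 and 24.2 CPM (-0.09, FDR 0.87). TRINITY_DN30586_c0_g1 (EIL1) summed to 25.9 and 29.7 CPM in air and 27.1 and 28.6 CPM under hypoxia. Within it, TRINITY_DN30586_c0_g1_i1 made up 37.8% and 30.2% of the gene in air and 40% in hypoxia replicate 1, but 89.3% in hypoxia replicate 3. The transcript log2 fold changes of 0.77 for i1 and -1.20 for i2 therefore rest on that library alone.

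**Figure D4:**
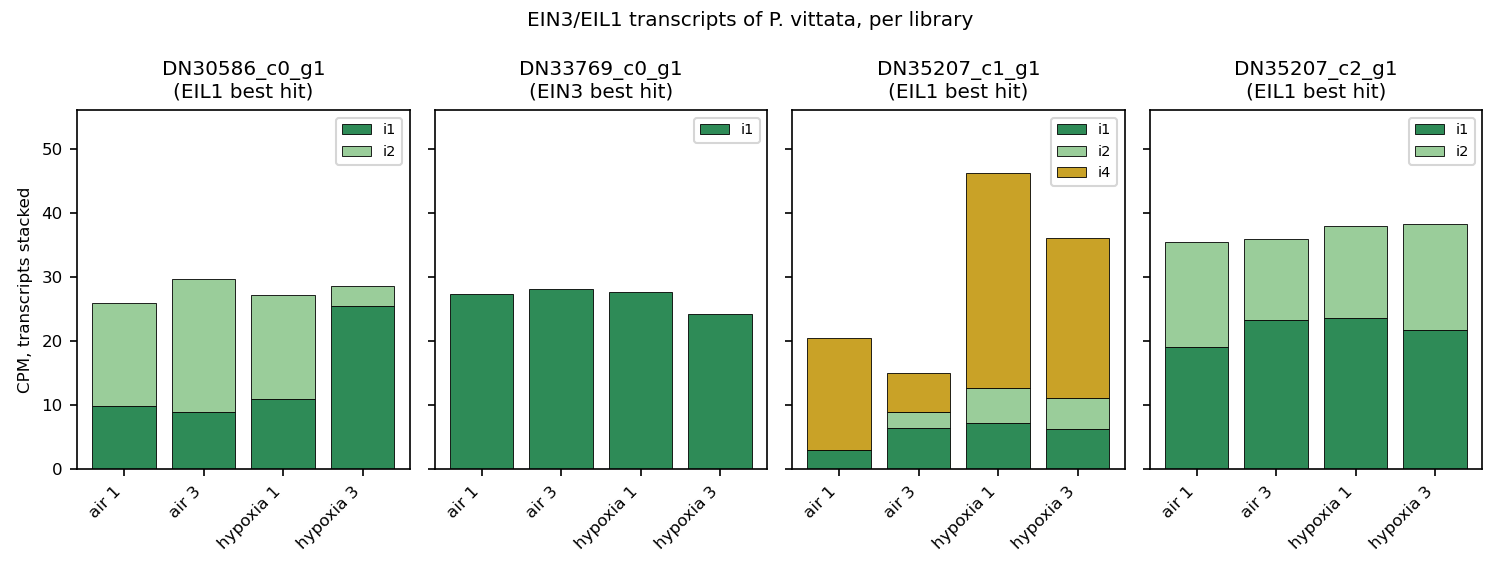
CPM of the 8 EIN3/EIL1 transcripts of *P. vittata*, stacked by Trinity gene (bars from 0), in each air and hypoxia library; i1, i2 and i4 are transcripts of the same gene. DN35207_c1_g1 is at 20.4 and 15.0 CPM in air and 46.1 and 36.0 CPM under hypoxia, and DN30586_c0_g1 keeps its total while i1 replaces i2 in hypoxia replicate 3.

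EBF1 and EBF2 encode the F-box proteins that remove EIN3 and EIL1, and EBF2 is itself induced by ethylene in *A. thaliana*. EBF1 was the best hit of 7 features in 4 species, with 4 above and 3 below 0, EBF2 of 0 features, and *E. hyemale* had 0 hits to either. Mapoly0013s0206.1 of *M. polymorpha* measured 60.8 and 54.0 CPM in air and 59.0 and 61.4 CPM under hypoxia (log2 fold change 0.07, 95% interval -0.17 to 0.31). Pp3c12_11790 of *P. patens* measured 90.9 and 97.1 CPM against 104 and 92.0 CPM (0.06), and Pp3c4_4760 measured 17.1 and 16.4 CPM against 16.1 and 16.3 CPM (-0.04). Locus 62165 of *S. moellendorffii* measured 138 and 120 CPM against 121 and 117 CPM (-0.11), and locus 233861 measured 37.7 and 36.4 CPM against 33.7 and 36.1 CPM (-0.08). The 95% intervals of these 5 features lay within 0.5 log2 unit of 0.

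The 2 EBF1 hits of *P. vittata* carry E-values of 1.5 and 1.1, which is no meaningful similarity, so their values say nothing about an F-box protein. TRINITY_DN33294_c0_g1_i1 measured 19.9 and 15.3 CPM in air and 23.8 and 25.1 CPM under hypoxia (log2 fold change 0.46, FDR 0.50). TRINITY_DN33294_c0_g1_i2 measured 0.629 and 0.483 CPM in air and 3.26 and 2.70 CPM under hypoxia, without overlap (1.35, 95% interval 0.78 to 1.92, unadjusted p = 0.0017, limma FDR = 0.26).

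Summed over the features of each role, EIN3/EIL1 levels were higher under hypoxia in 3 species without overlap. CTR1 levels were lower in all 4 species that had a hit, though the fern gave a log2 fold change of only -0.04. The EIN3/EIL1 sum gave log2 fold changes of 0.52 in the liverwort, 0.21 in the lycophyte and 0.29 in the fern without overlap, and 0.23 in the horsetail (281, 253 and 290 CPM against 361, 318 and 288 CPM) and 0.02 in the moss with overlap. The fern value comes largely from TRINITY_DN35207_c1_g1 at 1.18, beside 0.01, 0.09 and -0.09 for its other EIN3/EIL1 genes. The CTR1 sum gave -0.52 in the liverwort, -0.10 in the lycophyte, -0.34 in the horsetail (84.0, 82.7 and 81.7 CPM against 70.7, 68.5 and 56 CPM) and -0.04 in the fern. The fern values were 100 and 103 CPM against 99.7 and 96.6 CPM. Of its Trinity genes with CTR1 hits, only TRINITY_DN34378_c0_g2, with a weak E-value of 1e-12, was lower without overlap. Receptor sums were also lower without overlap in the liverwort, the lycophyte and the fern (-0.10, -0.10 and -0.04), and so were EIN2 sums (-0.19, -0.13 and -0.31), so that CTR1 is not set apart by direction. Sums were not tested. For single features, the shares lower without overlap were 30.4%, 23.5%, 9.38% and 20.9% in the liverwort, the lycophyte, the horsetail and the fern, and the shares higher 30.1%, 26%, 9.66% and 21.6%.

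**Figure D5:**
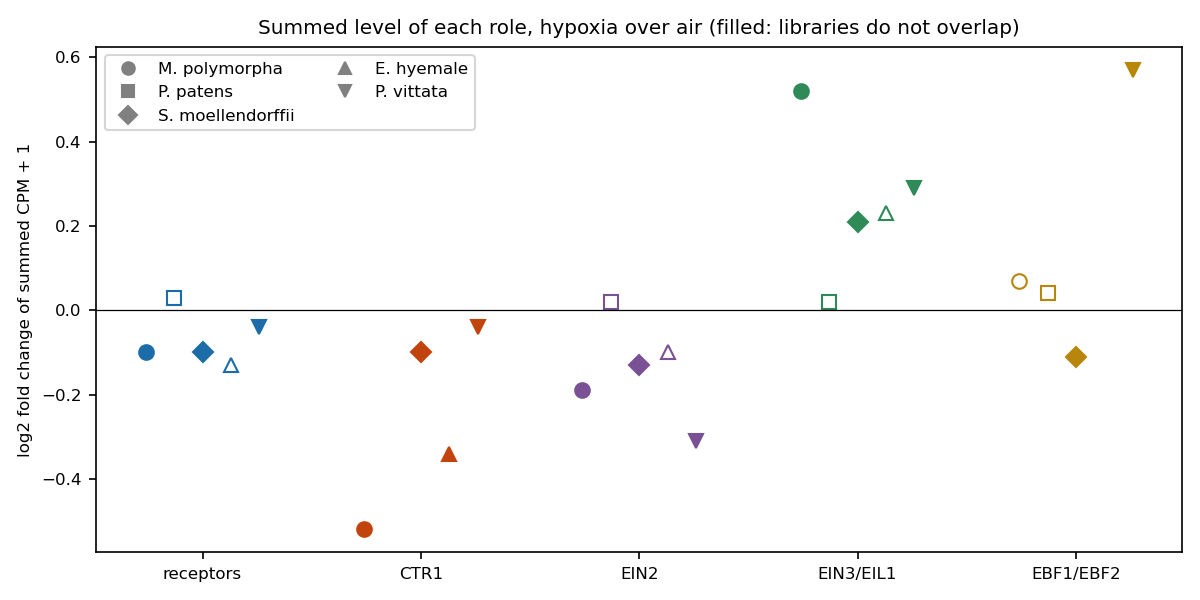
Log2 fold change of the summed CPM (plus 1) of each role under hypoxia over air (vertical axis), with 1 symbol shape per species. Filled symbols mark sums whose hypoxia and air libraries do not overlap, as for EIN3/EIL1 at 0.52, 0.21 and 0.29 and for CTR1 at -0.52, -0.10, -0.34 and -0.04; receptor sums lie between -0.13 and 0.03.

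Other genes of ethylene synthesis and signalling were read from a list of *A. thaliana* genes (ACC synthases and oxidases, regulators of ACC synthase turnover, receptor partners such as RAN1 and RTE1, and downstream genes). They numbered 7 features in the liverwort, 13 in the moss, 11 in the lycophyte, 18 in the horsetail and 24 in the fern, and 0 of them were called in either direction in any species. RAN1, the copper pump that loads the receptors, was higher without overlap for 1 feature in the liverwort, 1 in the moss and 2 in the lycophyte, against 30.1%, 20.5% and 26% of all features. Locus 233397 of *S. moellendorffii* measured 70.0 and 68.5 CPM in air and 98.8 and 90.3 CPM under hypoxia (log2 fold change 0.44, FDR 0.11), and locus 122320 measured 139 and 145 CPM against 204 and 173 CPM (0.40, FDR 0.16). Pp3c8_13750 of *P. patens* measured 386 and 387 CPM against 508 and 478 CPM (0.35, FDR 0.31), the largest value of its list, while the second RAN1 hit of the moss, Pp3c20_13520, overlapped at 159 and 139 CPM against 163 and 156 CPM.

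In the horsetail and the fern 0 RAN1-like features were higher without overlap, and 2 transcripts of the fern were lower without overlap, against 20.9% of all its transcripts. In *E. hyemale* Ehym_DN108702_c3_g1 measured 24.5, 22.5 and 33.1 CPM in air and 49.3, 28.7 and 31 CPM under hypoxia (log2 fold change 0.41), while Ehym_DN108702_c3_g3 of the same component measured 23.9, 25.4 and 24.3 CPM against 5.48, 37.7 and 16.6 CPM (-0.64), the highest and lowest of that list, both overlapping. The 2 of *P. vittata* were TRINITY_DN36138_c0_g1_i4 (72.4 and 104 CPM against 62.9 and 60.5 CPM, -0.49, FDR 0.51) and TRINITY_DN36138_c0_g1_i2 (28.4 and 40.2 CPM against 26.5 and 25 CPM, -0.38, FDR 0.60).

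Of the synthesis genes, 3 hits to ACC synthases or their relatives were lower without overlap, 1 each in the liverwort, the lycophyte and the moss, where 30.4%, 23.5% and 20.9% of all features were. The ACC synthase hit Mapoly0001s0058.1 (ACS4) of *M. polymorpha* measured 46.6 and 44.0 CPM in air and 32.4 and 34.7 CPM under hypoxia (log2 fold change -0.42, 95% interval -0.66 to -0.18, limma FDR = 0.027), the lowest of its list, and locus 75495 (ACS4) of *S. moellendorffii* 14.8 and 13.5 CPM against 10.8 and 10.9 CPM (-0.36, FDR 0.20). Pp3c21_10860 of *P. patens*, a hit to the aminotransferase ACS12, measured 9.63 and 10.2 CPM against 7.14 and 6.50 CPM (-0.48, FDR 0.22). The other hits to ACS4 and ACS8, Mapoly0034s0060.1, Pp3c3_26910, locus 91812 and TRINITY_DN24573_c0_g1_i1, overlapped at 1.02, 0.997, 0.972 and 1.07 of the air mean. ACC oxidase was a best hit only in *P. vittata*, where TRINITY_DN22049_c0_g1_i1 (ACO3) measured 5.08 and 3.41 CPM against 6.86 and 3.90 CPM (0.26, overlapping). Its E-value is 8e-12, and the hit to ACO5 has an E-value of 0.005.

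Downstream, the transcription factor RAV1 was the highest of the *M. polymorpha* list: Mapoly0072s0102.1 measured 122 and 122 CPM in air and 156 and 182 CPM under hypoxia (log2 fold change 0.46, FDR 0.022). HLS1, which acts in the apical hook of *A. thaliana* seedlings, was the lowest of the *S. moellendorffii* list (locus 104443, 13.5 and 12.9 CPM against 8.68 and 10.4 CPM, -0.43, FDR 0.20). A hit to HLS1 was the highest of the *P. vittata* list among transcripts averaging at least 1 CPM (TRINITY_DN22315_c0_g1_i1, E-value 4e-09, 5.78 and 3.32 CPM against 6.98 and 6.80 CPM, 0.54, FDR 0.59). The lowest of the *P. vittata* list was TRINITY_DN34726_c0_g1_i1, a hit to the exoribonuclease EIN5, at 14.5 and 19.2 CPM against 7.38 and 15.2 CPM (-0.60, overlapping).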

How the data were processed

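Messenger RNA was measured in 22 libraries of 5 species. The authors trimmed reads, assigned them with Kallisto to a reference transcriptome (liverwort, moss, lycophyte) or to their own Trinity assembly (horsetail, fern; k-mer 31, minimum abundance 2), removed loci with no sample above 20 reads, scaled by TMM in edgeR, and deposited log2 CPM without pseudocount. Tool versions are not given in the sources used here. The deposited log2 fold changes and FDR of their own comparison were not used. The deposited *E. hyemale* columns hold the same log2 unit with an error text for 0, and other deposited values used were BLAST E-values. *E. hyemale* row order was restored by sorting identifiers, after which values correlated with the deposited log2 average at 0.9997 (0.0103 before). Of the lowest values, 44.8% to 78.9% were whole reads within 0.1 read, so no count model was used. Kallisto divides reads between similar sequences, which can shift levels between isoforms and copies.

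Each species was fitted alone with limma 3.58.1 (R 4.3.3) on log2(CPM + 1), with a variance trend and Benjamini-Hochberg FDR over all features. The p-values are two-sided. They set each difference against a variance that combines the spread between its replicates with that of features at a similar level. Members and lists were chosen with earlier results of these data known. In each species and role the text names the feature of highest mean CPM, that of the largest absolute log2 fold change among those averaging at least 1 CPM, and any called, and likewise the extremes of the wider list. The other features named were chosen after their values were seen. Alternatives were other scaling factors, library totals, pseudocounts of 0.1 and 5, a filter at 1 CPM, other priors and thresholds, left-out libraries, a replicate block and summed features. Python 3.11.15, pandas 2.3.3, numpy 2.4.6, scipy 1.17.1 and matplotlib 3.10.9 were used. CPM is not per length and each table was scaled alone, so levels were not compared between genes or species.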

Additional observations from a re-analysis of the deposited data

Results flagged for a closer look

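The summed features listed as EBF1 hits differed in direction between 2 species. They were higher in every hypoxia library than in every air library of *P. vittata* (20.5 and 15.8 CPM against 27.1 and 27.8 CPM, log2 fold change 0.57) and lower in every one of *S. moellendorffii* (175 and 157 CPM against 154 and 153 CPM, -0.11). The difference between the species was not tested. Of single features, 21.6% were higher without overlap in the fern and 23.5% lower in the lycophyte. The *P. vittata* hits have E-values above 1, so the contrast is not one between EBF1 genes.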

How the results depend on the processing

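Changing 1 choice at a time, the count of called members was 0 under every alternative in the moss, the lycophyte, the horsetail and the fern, and for higher values in *M. polymorpha*. The 1 lower call of *M. polymorpha*, Mapoly0082s0007.1, went to 0 with a pseudocount of 5 CPM (log2 fold change -0.97) and without the variance trend (-1.14, limma FDR rounding to 0.01), and ranged from 0 to 1 when a library was left out (-1.33 to -0.95). The log2 fold change of Pp3c4_27580 turned from 0.28 to -0.08 without air replicate 3 (range over left-out libraries -0.08 to 0.64), and that of TRINITY_DN35749_c0_g1_i1 from -1.08 to 0.06 when transcripts were summed per Trinity gene. Reversals were read only for named features whose value exceeded its SE. Summing *E. hyemale* genes per component and leaving out the *P. vittata* hits with E-values above 0.001 were chosen after seeing the data. With replicate number as a block the count of lower calls in *M. polymorpha* stayed at 1 and no other call was made. Deviations of same-numbered libraries correlated at 0.031 in *M. polymorpha*, 0.061 in *P. vittata* and -0.109, -0.075 and -0.276 in *E. hyemale*, so the numbers were not taken to pair the libraries. With 2 libraries per condition, in *M. polymorpha* and *P. vittata*, the deviations within a condition mirror each other. A best match with the own number then follows from the sign of 1 correlation and cannot be counted per library. In *E. hyemale* 0 of 6 libraries correlated best with their own number. *P. patens* and *S. moellendorffii* share fewer than 2 usable numbers between conditions and had no such fit. With 2 libraries per condition in most species, small differences are near the limit of what can be called. In the lycophyte and the fern, large differences were not called either. *S. moellendorffii* ADH1 locus 145705 and PDC2 locus 157772 had log2 fold changes of 2.78 and 2.44 at limma FDR 0.21 and 0.13. The *P. vittata* SUS3 hit TRINITY_DN36162_c0_g1_i18 was at 2.1 (limma FDR 0.32). With 0% of features called higher or lower in both species, a lack of calls there does not by itself show small differences. Intervals cover the spread between libraries only.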
